A study of Mus musculus with 6 samples.

Results

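The CpG islands (CGIs) described here lie in the mouse major histocompatibility (MHC) region and its flanks, on chromosome 17 from 33400000 to 37200000 in the mm8 build. A probe belonged to the region when its start, as the scanner files give it, lay within these bounds, and no measured value was used to choose it. The array held 543 such probes, against 3688 on the rest of chromosome 17 and 88737 in all. After 1 probe with an outlier spot was left out, 518 of them formed 81 runs, where a run is 3 or more probes whose starts lie within 500 bp of the next. The rest of chromosome 17 held 571 such runs and the whole array 13822. A run stands for a CGI here, since the files name no islands. The remaining 24 probes lay in 19 groups of 1 or 2 probes.

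Liver DNA of 3 Mdr2-KO males (strain FVB.129P2-Abcb4tm1Bor) and 3 Mdr2-/+ males, all aged 12 months, was compared with 1 array per mouse. The Mdr2-/+ controls were heterozygotes bred from Mdr2-KO and FVB/NJ mice, so each control carried 1 copy of the disrupted allele too. Mdr2 (Abcb4) is the canalicular transporter that moves phosphatidylcholine into bile, and mice without it develop chronic cholestatic inflammation of the liver. In methylated DNA immunoprecipitation (MeDIP) an antibody against 5-methylcytosine enriches methylated fragments, which carried Cy5 here, while total (input) DNA from that liver was labelled with Cy3. The value of a run was the mean over its probes of the log2 ratio of Cy5 over Cy3, after the median of the array had been subtracted, and is called its level. A level of 0 is therefore the ratio of the median probe of that array. In whole liver, a change in the share of cells that carry methylation and a change in methylation per cell cannot be told apart.

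The MHC region packs the class I genes (such as H2-K1, H2-D1 and the H2-Q and H2-T families), whose products show peptides to cytotoxic T cells, and the class II genes (such as H2-Aa, H2-Ab1 and H2-Eb1), whose products show peptides to helper T cells. Among and between them lie genes of antigen processing (Tap1, Tap2, Psmb8 and Psmb9), complement components (C2, Cfb and C4b), the cytokine genes Tnf and Lta, and general regulators such as Brd2, Ring1, Rxrb and Ehmt2. DNA methylation at CGI promoters is known to go with gene silencing, and hepatocytes normally carry class I but little class II. The order of these genes was read from the RefSeq annotation of GRCm38, in which 64 of 65 genes of 6 lists (class I, class II, antigen processing, complement, inflammation and stress, and regulators with neighbours) were found, all of them on chromosome 17. The array is positioned in mm8 and the files pair no probe with a gene, so no run is given a gene name and no list could be counted.

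The MHC runs had 3 to 29 probes with a median of 5, which was also the median on the rest of chromosome 17. The MeDIP signal was well above background on 86.7%, 80.8% and 85.3% of the region's probes on Mdr2-KO arrays 1, 2 and 3, against 78.8%, 80.1% and 86.9% on Mdr2-/+ arrays 1, 2 and 3. Every run of the region had at least 1 probe with a MeDIP signal well above background on at least 1 array of each genotype. This is a loose limit, since at the run at 34734331 only 27.8% of probes and arrays were well above background. None of the region's probes was saturated. The 6 arrays lay on 3 slides. Replicate 1 of both genotypes shared a slide, Mdr2-KO replicates 2 and 3 shared another, and Mdr2-/+ replicates 2 and 3 shared the last. In these last 4 arrays genotype cannot be told apart from slide, so the difference within the shared slide is given beside each call.

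Levels in the region ran from -1.40 to 5.03 with a median of 0.06, against -0.10 on the rest of chromosome 17 and -0.12 over all runs. On every array the median MHC run was above the median run of the rest of the chromosome. It was higher by 0.16, 0.07 and 0.15 on Mdr2-KO arrays 1, 2 and 3, and by 0.18, 0.15 and 0.12 on Mdr2-/+ arrays 1, 2 and 3. These offsets overlapped between the genotypes. The input signal, the denominator of the ratio, had a lower median over the region's runs than over the rest of the chromosome on every array. As a mean of the arrays, centred on their medians, the median run had -0.35 in the region, against -0.17 on the rest of the chromosome (log2). The part of the input signal in these offsets was not tested. When all runs of the array were ranked by level and split into 5 classes of equal size, the region held 15, 17, 9, 20 and 20 runs from the lowest to the highest class. At the very top it was not rich: 6 of its 81 runs (7.41%) had a level above 3, against 12.6% of runs on the rest of the chromosome and 8.93% of all runs. Levels of different runs also depend on how many CpGs their fragments hold, so this order is one of enrichment and not of the share of methylated CpGs.

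**Figure D1:**
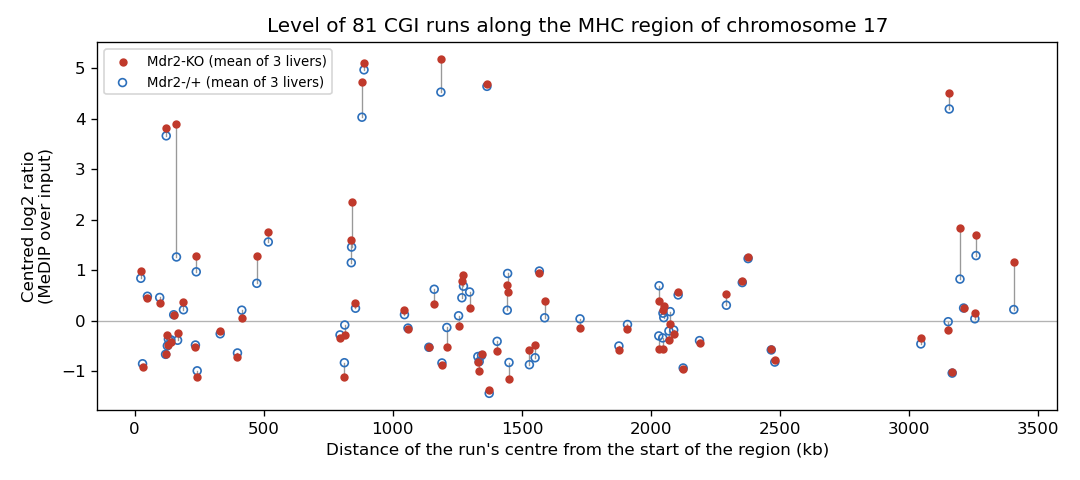
Level (centred log2 ratio of MeDIP over input) of the 81 runs of the MHC region against the distance of each run's centre from the start of the region in kb. Filled points are means of 3 Mdr2-KO livers, open points means of 3 Mdr2-/+ livers, and a line joins the genotypes. Most pairs lie on top of each other, and 6 runs have a mean level above 3.

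The most enriched run was chr17:34288112-34288597 with 5 probes. Its level was 5.16, 5.15 and 4.99 in Mdr2-KO livers, against 5.64, 4.70 and 4.57 in Mdr2-/+ livers. Mdr2-/+ replicate 1 was the highest of the 6 and the other Mdr2-/+ livers the lowest, and the difference of 0.13 was within its standard error of 0.26. The run at 34764365 showed the same order, with 4.76, 4.69 and 4.64 in Mdr2-KO livers and 5.25, 4.40 and 4.28 in Mdr2-/+ livers. So did the run at 36555032, with 4.62, 4.38 and 4.53 in Mdr2-KO livers and 5.08, 3.74 and 3.76 in Mdr2-/+ livers. At all 3 runs the Mdr2-KO livers lay between Mdr2-/+ replicate 1 and the other Mdr2-/+ livers. The run at 34585523 had 5.14, 5.10 and 5.30 in Mdr2-KO livers, against 5.08, 4.24 and 4.27 in Mdr2-/+ livers. Here the genotypes did not overlap, although Mdr2-/+ replicate 1 came within 0.1 of the lowest Mdr2-KO liver, and its difference of 0.65 (standard error 0.22, adjusted p = 0.151 from limma) was not called.

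The least enriched run was at 34773057, with -1.24, -1.33 and -1.51 in Mdr2-KO livers and -1.42, -1.48 and -1.40 in Mdr2-/+ livers. Its probes differed far more from each other, from -2.19 to 0.48 as means of the 6 arrays, than the genotypes did. The runs at 33641935, 36566505, 34849358 and 34212006 had levels of -1.05, -1.02, -0.98 and -0.97. Their MeDIP signals were well above background at 91.7%, 33.3%, 48.3% and 60.0% of probes and arrays. The lowest levels thus include runs near the background of the MeDIP channel, and the genotypes overlapped at all 5 of them. Within a run of the region the SD between probes had a median of 0.81 on the log2 scale, against a median SD between livers of 0.15 in Mdr2-KO and 0.16 in Mdr2-/+ livers.

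Along the region, levels were uneven on a short scale. Of 8 windows of 475 kb, window 2, which holds 9 runs, had the highest median level, at 1.37. Windows 1, 3, 4 and 5, with 20, 17, 9 and 14 runs, had medians of -0.05, -0.16, -0.05 and -0.03. Windows 6, 7 and 8 had 3, 8 and 1 runs with medians of -0.56, 0.18 and 0.70, and a stretch of 564.9 kb from 35880032 to 36444928 held no run. Over the 26 pairs of neighbouring runs less than 10 kb apart, the correlation of their levels was r = -0.03 and that of their differences r = 0.04. On the rest of the chromosome the correlation of levels over such pairs was 0.30 on the proximal side (70 pairs) and 0.41 on the distal side (58 pairs). That of differences was 0.09 and 0.18. Over neighbouring runs at any distance the contrast in levels was smaller, with r = -0.01 in the region (80 pairs), 0.14 on the proximal side and 0.13 on the distal side. These are descriptions across runs, which share arrays and differ in base composition, and the difference between them was not tested.

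Of the 81 runs, 3 passed an adjusted p of 0.05 with a higher level in Mdr2-KO livers than in Mdr2-/+ livers (limma with Benjamini-Hochberg adjustment over all 13822 runs). This is 3.70% of the region, against 4.28% of all runs of the array and 4.73% (27 of 571) on the rest of chromosome 17. None was lower, where 0.21% of all runs were called lower, and at an unadjusted p under 0.05 the region had 9 runs higher and 4 lower (14.8% and 5.51% of all runs). The share of called runs in the region was thus near that of the array. The median difference was 0.02 (quartiles -0.11 and 0.21), against 0.04 on the rest of chromosome 17 and 0.00 over all runs, and 43 of 81 runs (53.1%) had a positive difference. The genotypes were fully separated at 7 runs that were higher (8.64%, where 15.9% of all runs did so) and at 7 that were lower (8.64%, where 10.8% of all runs did so). The study used a delta Z of 0.7 as its limit for CGIs, with scores from an analysis described in earlier work. Here Z is the centred log2 ratio over the SD of its array, taken on runs, so the measures may differ. By this limit 1 run was higher, or 1.23% against 1.31% of all runs. None was lower by that limit, against 0.0362% of all runs.

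**Figure D2:**
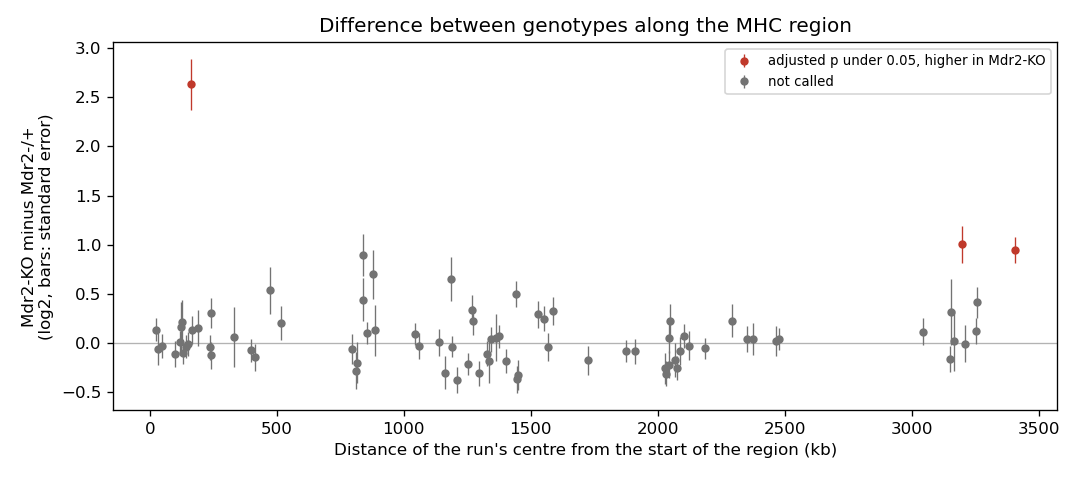
Difference in level (Mdr2-KO minus Mdr2-/+, log2) of each of the 81 runs against the distance of its centre from the start of the region in kb, with bars for the standard error from limma. The 3 coloured runs had an adjusted p under 0.05 and were higher in Mdr2-KO livers, and the largest difference is 2.63.

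The largest change of the region was at chr17:33561633-33562151, a run of 5 probes and 519 bp. It had 3.82, 3.90 and 3.97 in Mdr2-KO livers, against 1.70, 0.62 and 1.49 in Mdr2-/+ livers. The 3 Mdr2-KO livers lay close together and all were more than 2 units above the highest Mdr2-/+ liver. They differed by 2.63 (standard error 0.26, n = 3 livers each, limma's adjusted p = 0.00420), with a delta Z of 1.52. Within the shared slide it was 2.12. All 5 probes were higher and each passed the test on its own, with differences of 2.17 to 3.28. The differences on either side were small, as the run 9892 bp before it had a difference of -0.01 and the run 3468 bp after it one of 0.13.

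A run of 4 probes at chr17:36596622-36597072 had 1.76, 2.24 and 1.51 in Mdr2-KO livers, against 0.95, 0.81 and 0.73 in Mdr2-/+ livers. The lowest Mdr2-KO liver was above the highest Mdr2-/+ liver at every probe. The genotypes differed by 1.01 (standard error 0.19, limma's adjusted p = 0.0284), and by 0.80 within the shared slide. None of its 4 probes was called on its own, although all 4 were higher in Mdr2-KO livers. The neighbouring runs, 29769 bp before and 13556 bp after it, had differences of 0.03 and -0.01. This call was the least steady of the 3. It ended without Mdr2-KO replicate 1 or 2 and without Mdr2-/+ replicate 2 or 3 (differences of 1.05, 0.80, 0.99 and 0.95 and adjusted p of 0.115, 0.0636, 0.103 and 0.115 from limma). In these settings 0.239%, 1.09%, 0.658% and 0.463% of all runs were called higher, against 4.28% with all arrays.

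The last run of the region, chr17:36804962-36805724 with 7 probes, had 1.22, 1.29 and 1.01 in Mdr2-KO livers, against 0.20, 0.11 and 0.37 in Mdr2-/+ livers. The genotypes did not overlap, and the smallest gap between a Mdr2-KO and a Mdr2-/+ liver was wider than the spread within either genotype. The genotypes differed by 0.95 (standard error 0.13, limma's adjusted p = 0.0118), and by 1.02 within the shared slide. All 7 probes were higher, by 0.61 to 1.34, and 3 of them passed the test on their own. The mean level was highest at the distal end of the run in both genotypes, with 2.33 in Mdr2-KO and 1.11 in Mdr2-/+ livers at its last probe, so the profile along the run had a like shape in both. This run stood alone, with the nearest other run 145657 bp before it. The call ended without Mdr2-KO replicate 1 or 2 (differences of 0.93 and 0.89, adjusted p of 0.0793 and 0.0508 from limma) and without Mdr2-/+ replicate 2 (0.89, adjusted p = 0.0545). Of all runs, 0.239%, 1.09% and 0.658% were called higher in these settings, against 4.28% with all arrays.

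All 3 calls ended with slide as a fixed block (differences of 2.12, 0.80 and 1.02, adjusted p of 0.123, 0.314 and 0.180 from limma), which rests on the 2 arrays of the shared slide. They also ended with normexp background correction (differences of 1.88, 0.41 and 0.66, adjusted p of 0.0936, 0.268 and 0.0936).

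The input signal differed by -0.07, -0.13 and -0.08 at the 3 runs in this order (log2, Mdr2-KO minus Mdr2-/+), where the region's median input difference was -0.05 (quartiles -0.11 and -0.01). No run of the region was called in the input channel, where limma called 0% of all runs higher and 0.00723% lower.

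**Figure D3:**
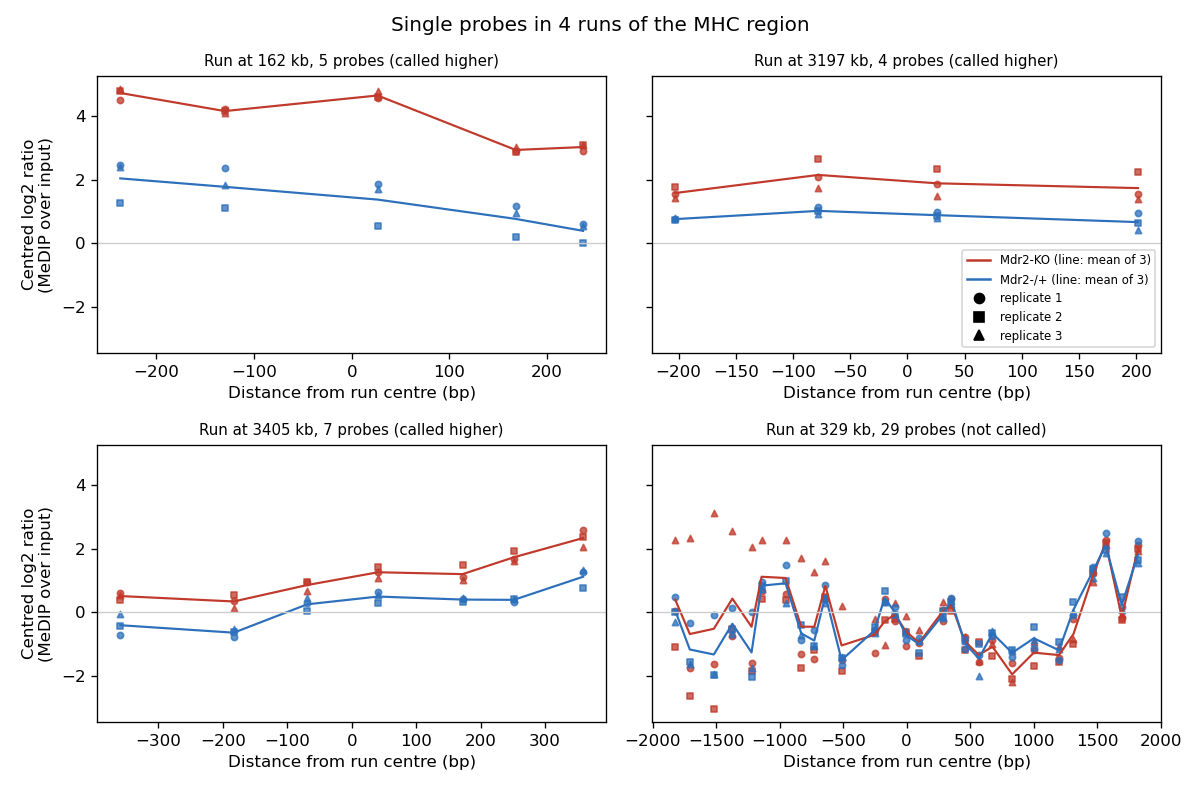
Level of single probes (centred log2 ratio of MeDIP over input) against the distance from the run's centre in bp, for the 3 called runs (at 162, 3197 and 3405 kb from the start of the region) and the run with the most probes (at 329 kb). Points are single livers, with a shape for each replicate number, and lines are means of 3 livers of a genotype. In the called runs the Mdr2-KO line is above the Mdr2-/+ line at every probe, and in the 29-probe run Mdr2-KO replicate 3 stands above the other livers over the first 11 probes.

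The run with the most probes held a change in a single liver. It spans chr17:33729353-33733041 with 29 probes and 3689 bp. Its mean was -0.47, -0.70 and 0.59 in Mdr2-KO livers, against -0.07, -0.27 and -0.42 in Mdr2-/+ livers, a difference of 0.06 with a standard error of 0.31. Over the first 11 probes, from 33729353 to 33730707, Mdr2-KO replicate 3 averaged 1.96, against -0.76 and -1.15 in the other Mdr2-KO livers. The Mdr2-/+ livers averaged 0.03, -0.62 and -0.75 there. Mdr2-KO replicate 3 was the highest of the 6 livers at all 11 of these probes and led by more than 1 unit at 9 of them. The widest lead was 3.19, at the probe that starts at 33729657. Over the other 18 probes it averaged -0.25, against -0.30 and -0.43 in the other Mdr2-KO livers and -0.13, -0.06 and -0.22 in the Mdr2-/+ livers.

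The lead came from the MeDIP channel. Over the first 11 probes the MeDIP signal, centred on the median of its array, was 1.98 in Mdr2-KO replicate 3, against -0.72 and -1.15 in the other Mdr2-KO livers and 0.17, -0.44 and -0.61 in the Mdr2-/+ livers (log2). The input signal was -0.03 in that liver, against -0.01 and -0.09 in the other Mdr2-KO livers and -0.01, 0.06 and 0.03 in the Mdr2-/+ livers. Such stretches were rare on the array. A single liver led all others by more than 1 unit at 5 or more probes in a row in 8 of the 13822 runs. Of these runs, 8900 had the 5 or more probes needed, and a longer run has more room for such a stretch. The stretch in Mdr2-KO replicate 3 was the 1 case in the region, with 6 probes in a row. These probes were picked out after their values were seen. Without Mdr2-KO replicate 3 the remaining Mdr2-KO livers lay below all 3 Mdr2-/+ livers in the mean of the run. The next longest runs, at 34444270, 33518801 and 35586992 with 15, 14 and 14 probes, had differences of 0.10, 0.01 and -0.05 (standard errors 0.11, 0.12 and 0.11), and the genotypes overlapped at each.

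Among the rises that were not called, the run at chr17:34240020-34240515 with 5 probes came closest. It had 2.51, 2.11 and 2.46 in Mdr2-KO livers, against 1.88, 1.05 and 1.46 in Mdr2-/+ livers. The genotypes did not overlap, with Mdr2-/+ replicate 1 nearest to the Mdr2-KO livers, and the difference of 0.90 (standard error 0.22) had an adjusted p of 0.0593 from limma. A run of 3 probes ends 767 bp before it, at 34239252. That run had 1.75, 1.47 and 1.56 in Mdr2-KO livers and 1.61, 0.72 and 1.13 in Mdr2-/+ livers, and Mdr2-/+ replicate 1 overlapped the Mdr2-KO livers. Its difference was 0.44 (standard error 0.22). The run at 34279921, with 8 probes, had 4.92, 4.79 and 4.49 in Mdr2-KO livers, against 4.62, 3.66 and 3.82 in Mdr2-/+ livers. All 8 probes were higher on average, Mdr2-/+ replicate 1 lay among the Mdr2-KO livers, and the difference of 0.70 (standard error 0.25) had an adjusted p of 0.168 from limma.

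The falls were small, and none passed the test. The 5 largest ran from -0.38 to -0.31, with adjusted p of 0.166 to 0.271 from limma. The largest was at chr17:34608813, where 6 probes had -0.55, -0.65 and -0.32 in Mdr2-KO livers, against -0.27, -0.13 and 0.01 in Mdr2-/+ livers. The genotypes did not overlap there, nor at the runs at 34697141, 34844479 and 35431168, while they did overlap at 34849358. No run of the region had a difference of -0.5 or below, and 7 had one of 0.5 or above. These 7 are 8.64% of the region's runs. A difference of 0.5 or more in either direction was seen at 13.1% of runs on the rest of chromosome 17. Over all runs it was 11.4%.

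Of the 80 pairs of neighbouring runs, 2 had genotypes that did not overlap at either run, and 1 of these had differences of opposite sign. The genotypes did not overlap at 17.3% of the region's runs, in either direction, against 26.7% of all runs. Such pairs were not counted over the array, so how common they are is not known. The pair of opposite sign was picked out after its values were seen. At chr17:34843068-34843333 a run of 3 probes had 0.65, 0.68 and 0.81 in Mdr2-KO livers, against 0.41, 0.05 and 0.17 in Mdr2-/+ livers. The run of 4 probes that starts 1145 bp after its end, at 34844479, had 0.55, 0.46 and 0.70 in Mdr2-KO livers, against 1.14, 0.77 and 0.91 in Mdr2-/+ livers. The differences were 0.50 and -0.37, and their adjusted p were 0.0770 and 0.180 from limma, so neither was called. The difference within the shared slide had the same signs, at 0.23 and -0.59.

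**Figure D4:**
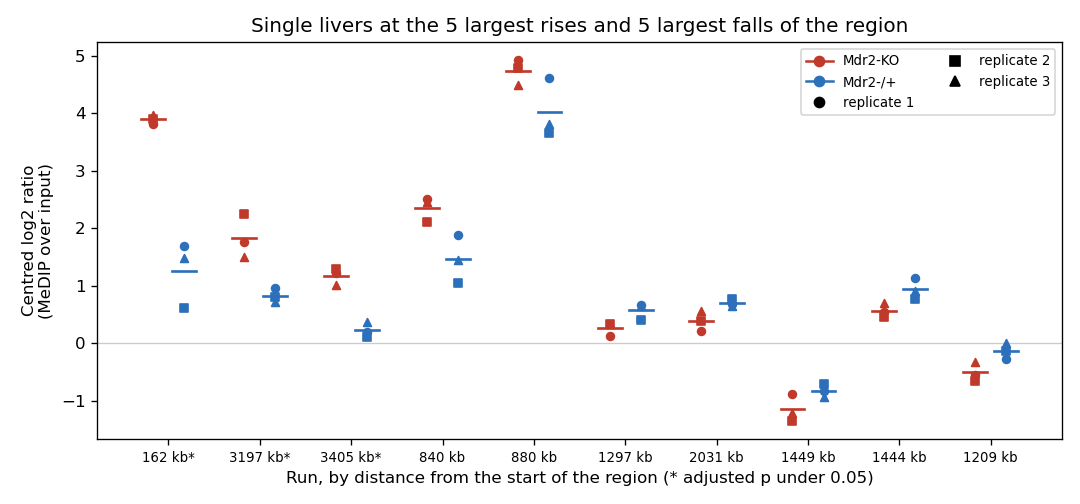
Level (centred log2 ratio of MeDIP over input) of each liver at the 5 runs with the largest rises and the 5 with the largest falls in Mdr2-KO livers, with runs named by their distance from the start of the region in kb. Mdr2-KO is left of Mdr2-/+ in each pair, bars are means of 3 livers and shapes give the replicate number. The 3 starred runs were called, and at the rises of 0.90 and 0.70 Mdr2-/+ replicate 1 is the Mdr2-/+ liver nearest to the Mdr2-KO livers.

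The difference between the genotypes varied with the level class of a run. The level used for the classes is a mean over the livers of both genotypes, so it shares its values with the difference. A wider spread of levels in Mdr2-KO livers would by itself give a positive correlation between them. Whether the difference depends on level apart from this was not tested. In the region the median difference was -0.04, -0.05, -0.16, 0.08 and 0.27 from the lowest to the highest level class. Over all runs it was -0.06, -0.07, -0.05, 0.05 and 0.26. A positive difference was seen at 18 of the 20 runs of the highest class, where 82.9% of all runs of that class had one. The rest of chromosome 17 had a median of 0.26 in that class. The rise in the highest class was thus near that of the array. Of the 3 called runs, 2 were among the 20 runs of the highest class and 1 among the 20 of the next. Over all runs, 10.6% of the highest class and 6.48% of the next were called higher. Level and difference had a correlation of r = 0.46 over the 81 runs, against 0.32 on the rest of chromosome 17 and 0.32 over all runs, as a description across runs that share the same arrays. The mean of the 20 highest runs was 2.47, 2.49 and 2.43 on Mdr2-KO arrays, against 2.41, 1.83 and 1.87 on Mdr2-/+ arrays. Mdr2-/+ replicate 1 thus lay just below the Mdr2-KO arrays and apart from the other Mdr2-/+ arrays.

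Mdr2-/+ replicate 1 was the highest Mdr2-/+ liver at 19 of these 20 runs and exceeded the lowest Mdr2-KO liver at 16, while Mdr2-/+ replicates 2 and 3 did so at 4 and 3. Among the 2765 runs of that class on the whole array, these counts were 2630 and 2041, and 329 and 330. Over the highest class in the region, the median difference of the Mdr2-KO mean was 0.48 against Mdr2-/+ replicates 2 and 3 and -0.01 against Mdr2-/+ replicate 1. On the rest of chromosome 17 these were 0.58 and -0.27, and over all runs 0.53 and -0.17. In the 142 highest runs of the rest of chromosome 17 the means were 3.23, 3.24 and 3.10 on Mdr2-KO arrays and 3.32, 2.54 and 2.57 on Mdr2-/+ arrays, so Mdr2-/+ replicate 1 was the highest of the 6 there. The SD over all log2 ratios was 1.70, 1.75 and 1.66 on Mdr2-KO arrays, against 1.83, 1.56 and 1.52 on Mdr2-/+ arrays, and was again lowest on Mdr2-/+ replicates 2 and 3. Mdr2-/+ replicate 1 shared its slide with Mdr2-KO replicate 1. In the lowest class the means were -0.87, -0.95 and -0.91 on Mdr2-KO arrays and -0.83, -0.82 and -0.93 on Mdr2-/+ arrays, which overlapped.

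**Figure D5:**
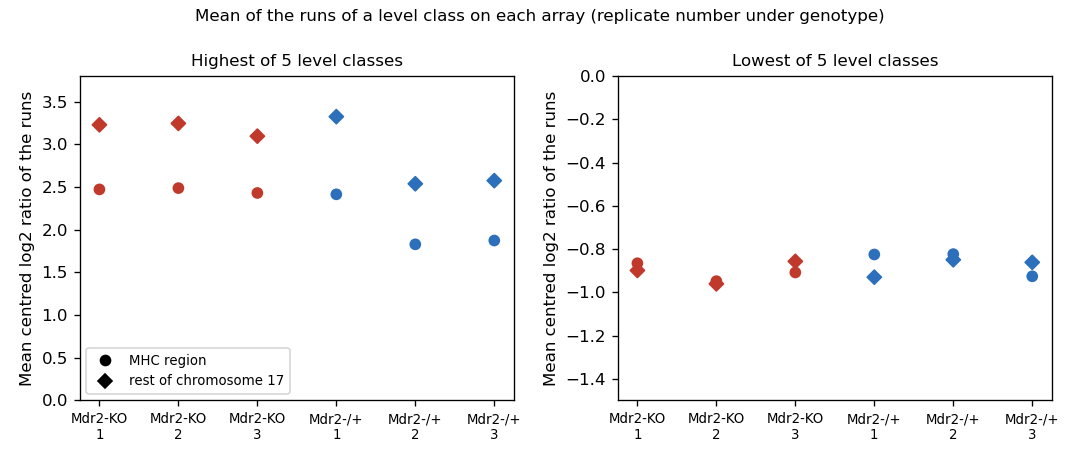
Mean level (centred log2 ratio) on each array of the runs in the highest level class (left) and in the lowest (right), with circles for the MHC region and diamonds for the rest of chromosome 17. The 3 Mdr2-KO arrays come first. In the highest class Mdr2-/+ array 1 lies near the Mdr2-KO arrays, at 2.41 in the region, and Mdr2-/+ arrays 2 and 3 lie lower, at 1.83 and 1.87.

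Tested one by one, 11 of the 542 single probes of the region were higher in Mdr2-KO livers and 0 were lower at an adjusted p under 0.05 (limma over all 88646 probes). At an unadjusted p under 0.05 there were 58 higher and 29 lower, or 10.7% and 5.35%, against 12.1% and 4.94% of all probes. The 11 are 2.03% of the region's probes, against 1.89% of all probes called higher and 0.122% called lower. Of the 11, 8 lay in the called runs. A ninth, at 33873272 in a run of 4 probes from 33872620, had 2.97, 3.18 and 3.14 in Mdr2-KO livers, against 1.73, 0.97 and 1.27 in Mdr2-/+ livers. The genotypes were more than 1 unit apart at this probe, with a difference of 1.77 (standard error 0.23, adjusted p = 0.0259 from limma). Its run as a whole had a difference of 0.54 (standard error 0.24, adjusted p = 0.258), and the first 2 probes of the run were not well above background on any array.

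The other called probes rest on dim signals. The probe at 35446469 was not well above background in either channel on any array, and the MeDIP signal of the probe at 35879984 was well above background on 1 array, so the sizes of their differences have no firm value. Of the 24 probes outside runs, none passed the test (limma) and 1 was higher at an unadjusted p under 0.05. Their differences ran from -1.01 to 1.05 with a median of 0.14, and their levels from -1.72 to 5.26.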

How the data were processed

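Liver DNA of 6 mice was hybridized to 6 2-colour CpG island arrays, with MeDIP DNA in Cy5 and input DNA in Cy3 per the labels. The deposited scanner files hold intensities after the background and dye correction of Agilent Feature Extraction (version 10.5.1.1 in the file headers, 8.5.1.1 in the submitters' processing notes), with no normalization between arrays. A second deposited table holds the authors' normalized score per probe and array, in 6 columns, and served only as an alternative. It lists 69831 probes, 59758 of them with all 6 values. Log2 ratios of Cy5 over Cy3 were centred on the median of each array, and 91 probes flagged as outliers on 1 or more arrays were dropped. Probes whose starts lay within 500 bp of the next formed runs, runs of at least 3 probes were averaged, and limma 3.58.1 (R 4.3.3, two-sided) compared 3 Mdr2-KO with 3 Mdr2-/+ livers over all 13822 runs with Benjamini-Hochberg adjustment. The code was tested on simulated data. Precision is limited by how few arrays there are. The labels call the mice biological replicates.

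The named runs are the called runs, the 5 largest rises and falls, the 5 highest and lowest levels and the runs with the most probes. The region, the lists and this rule were chosen with earlier results of these data known. Alternatives were normexp on median signals (offset 50), loess, quantile, division by the SD of the array, other centring, probe filters and run definitions, a replicate or slide block, array weights, the methods' t-test, the deposited scores and leaving out each array. No sequences are given, since the files hold none and the reference is of another build.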

Additional observations from a re-analysis of the deposited data

How the results depend on the processing

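The call at 33561633 held in 20 of 23 alternatives, with differences from 1.48 (on the scale of the deposited scores) to 2.85. Normexp, slide as a fixed block and the methods' t-test after Benjamini-Hochberg each left 0 MHC runs called higher and 0 lower. Over all runs they called 0, 7 and 4 higher and 0, 4 and 1 lower, and normexp moved the median difference of all runs to 0.11. The call at 36596622 also ended with the median over probes. Called higher in the region were 6 runs after division by the SD of the array (9.19% of all runs were), 5 of 65 with only the probes well above background in both channels on all arrays (bright probes; 7.62%), 17 with array weights (18.5%), 8 of 65 with the deposited scores (13.3%), 5 by the t-test unadjusted (11.5%) and 1 by delta Z (1.31%). Called lower were 1 with quantile normalization (2.75% of all runs were), 2 with array weights (4.12%), 6 by the t-test unadjusted (6.08%) and 1 with the deposited scores (2.95%). With each array left out in turn, 1 to 17 MHC runs were called higher and 0 to 1 lower. The 17 and 1 were without Mdr2-/+ replicate 1, where 19.1% of all runs were called higher and 2.37% lower. Leaving out Mdr2-KO replicate 1 or 2 or Mdr2-/+ replicate 2 left 1 call, at 33561633. In these settings 0.239%, 1.09% and 0.658% of all runs were called higher, against 4.28% with all arrays, so calls were lost over the whole array. Without Mdr2-KO replicate 3 or Mdr2-/+ replicate 3 the share was 3.22% and 0.463%.

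The median difference of the region was 0.11 with normexp and -0.074 with quantile normalization, each within 0.01 of the median of all runs in that setting. On the rest of chromosome 17 it was 0.14 with normexp, 0.013 with loess, -0.054 with quantile, 0.016 after division by the SD, 0.017 with at least 5 probes, 0.018 with the median over probes, 0.024 with slide as a random block, -0.0022 with slide as a fixed block, 0.093 with array weights, -0.015 with the deposited scores and 0.0066 to 0.086 with an array left out. Some differences that were not called changed sign. With normexp they were 0.13 at 34608813, 0.11 at 34697141 and 0.21 at 35431168, with loess -0.016 at 34279921, and at 34849358 0.049 with bright probes and 0.12 with the deposited scores. The causes were not tested. The rise at 34240020 was called in 7 of 23 alternatives and the rise at 34279921 in 4 of 23. Among the 5 largest falls, 34608813 was called in 3 of 23, 34697141 in 1 of 23 and 34844479 in 1 of 22. Those at 34849358 and 35431168 were called in none.

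The labels name no pairing of mice by replicate number. Correlations of deviations were 0.11, -0.09 and 0.12 between samples of the same number, and from -0.22 to 0.20 between samples of other numbers. They cannot settle pairing, since deviations within a genotype cancel out and replicate 1 of both genotypes shared a slide. With the replicate number as a block, 4 MHC runs were called higher and 0 lower, against 3.45% and 0.123% of all runs. The Mdr2-/+ columns of the deposited table carry other numbers than the scanner files, so only their genotype was used. Runs with MeDIP signals near background have uncertain levels.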
